A study of Mus musculus with 8 samples.

Results

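The keratins and keratin-associated proteins were taken as all rows of the deposited gene table whose symbol starts with Krt, which gave 45 of 752 genes. Of these, 26 were keratins (14 of type I and 12 of type II), 18 were keratin-associated proteins (Krtap genes) and 1, Krtdap, was a keratinocyte differentiation gene that carries the prefix without being a keratin. Bulk RNA was sequenced from 8 subcutaneous tumors of MC38, an established mouse colon adenocarcinoma cell line, grown in wild-type, germ-free C57BL/6 mice and dissected on day 23. All mice received an antibody against the T cell receptor PD-1, so there was no group without it. Tumors 11, 17, 18 and 19 (anti-PD-1 replicates 1 to 4) had the antibody alone. Tumors 36, 37, 39 and 40 (F. nucleatum replicates 1 to 4) came from mice that were also given Fusobacterium nucleatum strain ATCC-25586 by gavage. The labels do not say whether each tumor came from its own mouse, so the limma p-values below measure the spread between these tumors, which may be technical in part. The table is a selection: each of its 752 genes had an unadjusted p of at most 0.04995 and an absolute log2 difference above 1 between these same groups. No value here is therefore an independent test of a group difference.

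Keratins are the intermediate filament proteins of epithelial cells. A filament is built from pairs of 1 type I (acidic) and 1 type II (basic) chain, and the pair in use marks the tissue. Basal cells of the epidermis make Krt5 with Krt14, differentiating cells above them Krt1 with Krt10, and activated or wounded epidermis and parts of the hair follicle Krt6a and Krt6b with Krt16 and Krt17. The inner root sheath of the follicle has its own pairs (Krt25 to Krt28 with Krt71 to Krt73, while Krt74 is annotated as a pseudogene in the mouse). So has the hair shaft (Krt31 to Krt40 with Krt81 to Krt87). There keratin filaments are embedded in small Krtap proteins rich in sulfur or in glycine and tyrosine. Simple epithelia such as that of the colon mainly use Krt8 with Krt18, Krt19 and Krt20. None of these 4 genes was among the table's rows, so they were not analysed here.

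The keratin family members in the table were carried by 1 tumor, apart from Krt7. Of 52 keratins annotated as protein coding 26 were in the table, among them 5 of 8 epidermal type I and 5 of 9 epidermal type II. The rest of the family has no value here. In the log2 values 44 of the 45 members had their highest value in tumor 37, of the F. nucleatum group, against 26.6% of all genes of the table. Tumor 37 held at least 90% of the normalized counts of 43 members (16.4% of all genes), and 36 members had reads in tumor 37 and none in the other 7 tumors (13% of all genes). Members made up 36 of the table's 98 genes with reads in tumor 37 only. Keratin family reads came to 46204 in tumor 37 and to 43 to 154 in each of the others. In a bulk sample, fewer cells of a type and less RNA per cell cannot be told apart.

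Reads were recovered from the deposited log2 values, whose normalized counts were whole multiples of the value of 1 read (within 0.1 read) in 100% of the values above 0. The table's genes held 97511 to 308139 reads per tumor. The deposited FPKM values (fragments scaled by transcript length and by library size) were used to recover their scale. In genes with 1 annotated transcript, reads per kilobase divided by FPKM gave the number of fragments that FPKM was scaled to. It ran from 41.6 M to 81.7 M per tumor and was 56.0 M in tumor 37 (interquartile range over 116 genes 55.9 M to 56.4 M). If FPKM was also normalized between libraries, which is not stated, this denominator need not be a library's own depth. Against that denominator the family took 0.0825% of tumor 37 and 0.000103% to 0.000194% of the others. A count of 0 allows up to 3 reads, which is a normalized count of 2.37 to 4.66 depending on the tumor. Such limits cover counting error only.

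**Figure D1:**
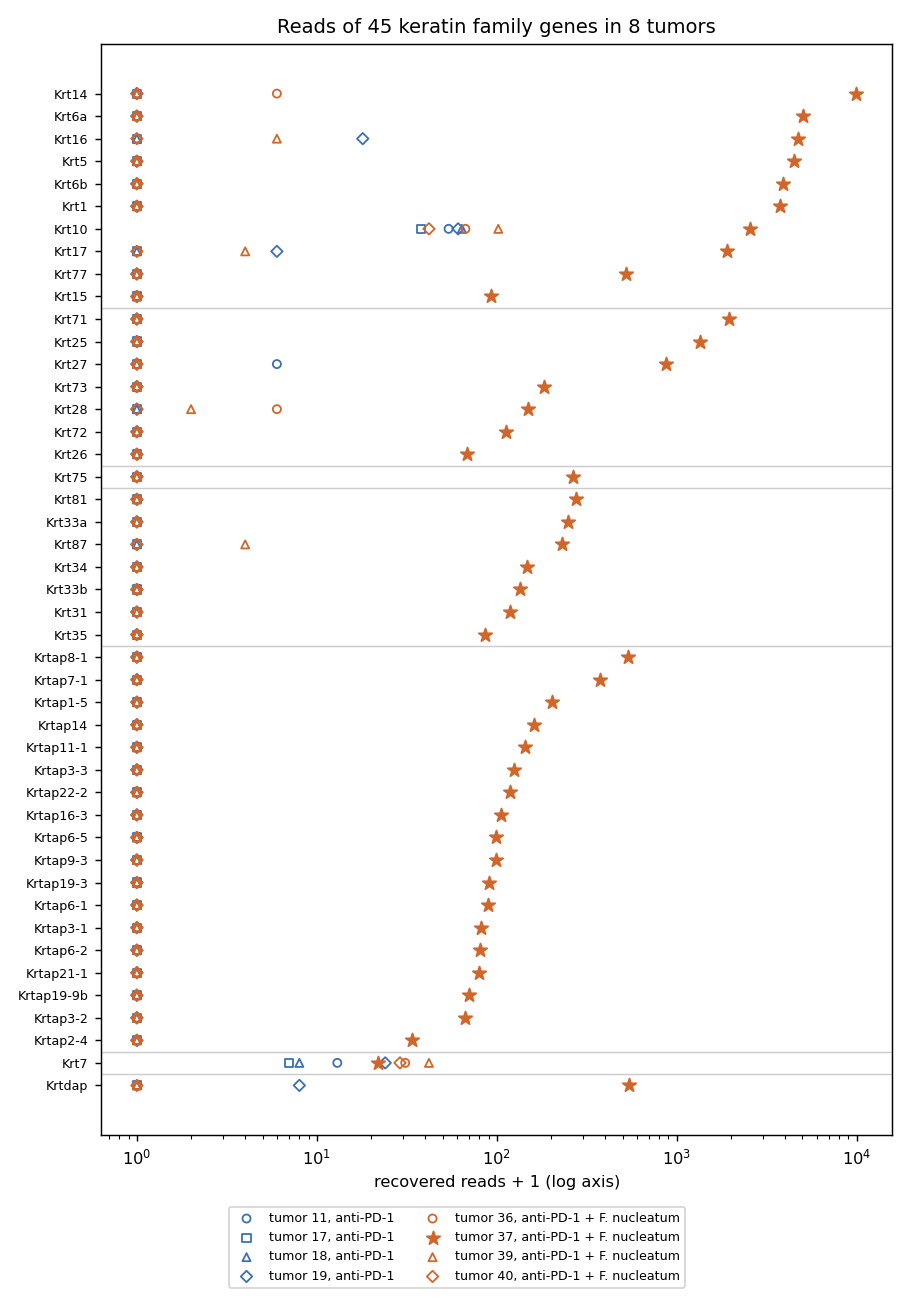
Recovered reads plus 1 (log axis) of the 45 members, 1 row per gene, in each of the 8 tumors (blue for anti-PD-1, orange for anti-PD-1 with F. nucleatum). Grey lines separate, from the top, epidermal, inner root sheath, companion layer and hair shaft keratins, Krtap genes, Krt7 and Krtdap. The filled stars of tumor 37 lie far to the right in every row but that of Krt7.

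The upstream sequences of 6 members are shown, taken from the parts of the family that the values separate. They are an epidermal keratin (Krt10), an inner root sheath pair (Krt25 and Krt71) and a hair shaft keratin (Krt34). The others are the Krtap gene with the highest level (Krtap8-1) and the member not carried by tumor 37 (Krt7). Each of the 6 sequences is the 250 bases before the RefSeq transcription start on GRCm38.p6, written 5′ to 3′ on the gene's strand. Capitals mark matches, on either strand, to TATAAA (the TATA box), CTTTGAA (a core bound by LEF1 and related factors), GCCNNNGGC (AP-2) or TGANTCA (AP-1). Krt10 is not typical of its class, since no other epidermal keratin with a window had TATAAA in it. The windows are chr11:99389365-99389614 (minus strand) for Krt10, chr11:99322952-99323201 (minus) for Krt25, chr15:101743098-101743347 (minus) for Krt71, chr11:100041555-100041804 (minus) for Krt34, chr16:89487953-89488202 (minus) for Krtap8-1 and chr15:101412153-101412402 (plus) for Krt7.
Krt10: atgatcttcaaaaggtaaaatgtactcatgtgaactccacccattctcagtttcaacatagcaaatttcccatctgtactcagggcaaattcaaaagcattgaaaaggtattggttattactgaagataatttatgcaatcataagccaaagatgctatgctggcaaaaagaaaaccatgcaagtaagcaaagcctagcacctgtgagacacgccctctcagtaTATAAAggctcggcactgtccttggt
Krt25: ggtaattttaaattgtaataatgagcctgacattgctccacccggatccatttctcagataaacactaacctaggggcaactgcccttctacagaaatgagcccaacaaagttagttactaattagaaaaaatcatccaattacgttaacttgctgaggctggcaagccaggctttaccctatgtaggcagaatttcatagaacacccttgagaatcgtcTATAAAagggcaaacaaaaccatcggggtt
Krt71: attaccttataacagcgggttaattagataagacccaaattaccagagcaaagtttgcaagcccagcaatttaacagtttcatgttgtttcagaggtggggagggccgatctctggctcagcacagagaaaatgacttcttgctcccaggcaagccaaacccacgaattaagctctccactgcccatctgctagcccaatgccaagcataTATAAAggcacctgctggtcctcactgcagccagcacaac
Krt34: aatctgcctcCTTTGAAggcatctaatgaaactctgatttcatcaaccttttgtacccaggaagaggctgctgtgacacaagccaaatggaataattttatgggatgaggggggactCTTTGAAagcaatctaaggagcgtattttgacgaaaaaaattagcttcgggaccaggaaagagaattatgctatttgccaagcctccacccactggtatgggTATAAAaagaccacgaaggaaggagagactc
Krtap8-1: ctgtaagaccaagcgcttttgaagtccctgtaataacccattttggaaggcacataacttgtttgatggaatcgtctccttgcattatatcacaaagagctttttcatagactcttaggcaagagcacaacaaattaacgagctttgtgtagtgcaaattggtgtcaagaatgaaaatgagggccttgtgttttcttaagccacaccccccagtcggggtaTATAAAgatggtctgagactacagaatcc
Krt7: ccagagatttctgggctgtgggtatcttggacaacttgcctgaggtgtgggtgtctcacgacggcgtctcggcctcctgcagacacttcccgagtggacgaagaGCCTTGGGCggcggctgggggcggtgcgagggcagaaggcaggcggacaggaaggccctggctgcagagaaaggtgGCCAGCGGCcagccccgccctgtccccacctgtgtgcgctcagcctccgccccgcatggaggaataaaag

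A promoter sequence was matched for 34 of the 45 members. TATAAA was present in the 250 bases of 26 of these 34 (76.5%) and in 12.4% of all 32851 promoter windows of that length. Counted only on the gene's own strand with its first base 40 to 20 bases before the start, it was present in 20 of the 34 (58.8%) and in 1.99% of all windows. Anywhere in the window and on either strand, TATAAA was found in 7 of 7 inner root sheath keratins, 3 of 3 hair shaft keratins, 14 of 17 Krtap genes and 1 of 4 epidermal keratins (Krt10). At the restricted place and strand these counts were 5 of 7, 2 of 3, 11 of 17 and 1 of 4. Windows were matched for only 4 of the 10 epidermal and 3 of the 7 hair shaft members, so the classes are not compared in full. The windows of Krt14 and Krt7 lie wholly inside the genes as GENCODE bounds them, and may not be those of their main start sites. CTTTGAA was present in 8 of the 34 (23.5%) and in 4.46% of all windows, and the 8 were the 3 hair shaft keratins Krt31, Krt33b and Krt34 and 5 Krtap genes. GCCNNNGGC was found in 1 member, Krt7 (2.94% of members and 13.7% of all windows), and TGANTCA in 3, of which 2 were Krtap genes (8.82% and 6.75%). The 4 motifs were searched on both strands, and a match describes the letters only.

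Krt14, a basal keratin, had the highest level of the members. Krt14 (chromosome 11, 100203162 to 100207548, GRCm38, minus strand), the type I keratin of basal cells, had 0 reads in tumors 11, 17, 18, 19, 39 and 40, 5 reads in tumor 36 and 9980 in tumor 37, where its level was 101.9 FPKM. Its partner Krt5 (chromosome 15, 101707070 to 101712898, minus strand) had 4470 reads and 36.5 FPKM in tumor 37 and 0 reads in all 7 others. Krt15, a further basal keratin that also marks the follicle bulge, had 92 reads (0.927 FPKM) in tumor 37 alone. On normalized counts the mean of the F. nucleatum tumors was at least 894-fold higher than that of the anti-PD-1 tumors for Krt14 and at least 400.4-fold higher for Krt5, with each anti-PD-1 tumor set at the limit of 3 reads. Both bounds rest on tumor 37: without it the log2 difference of Krt14 was 0.78 and Krt5 had no reads in any tumor.

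The differentiation pair was present at a lower level. Krt1 (chromosome 15, 101845426 to 101850794, minus strand) had 3758 reads in tumor 37 and 0 in each of the others. Krt10 (chromosome 11, 99385254 to 99389364, minus strand) was, with Krt7, 1 of the 2 members with reads in all 8 tumors. Its FPKM values were 0.386, 0.421, 0.462 and 0.341 in anti-PD-1 tumors 11, 17, 18 and 19, and 0.403, 21.7, 0.599 and 0.310 in tumors 36, 37, 39 and 40. The groups overlapped, and outside tumor 37 the values of Krt10 lay between 0.310 and 0.599 FPKM in both. Krt10 differed between groups by 1.49 ± 1.14 on the log2 scale (limma SE, adjusted p = 0.271), and by 0.07 without tumor 37. Krt77, a type II keratin, had 520 reads (3.17 FPKM) in tumor 37 alone.

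Keratins of activated epidermis and follicle ran from 22.0 (Krt17) to 54.3 FPKM (Krt16) in tumor 37, against 36.5 for basal Krt5 and 101.9 for basal Krt14. Krt6a and Krt6b, neighbours on chromosome 15, had 5015 and 3912 reads in tumor 37 (37.2 and 31.4 FPKM) and none elsewhere. They are uncertain as single genes, since 44.8% of the 50-base stretches of Krt6a also occur in other Krt transcripts, mostly in Krt6b. Krt16 (chromosome 11, 100246091 to 100248902) had 4729 reads (54.3 FPKM) in tumor 37, 17 in tumor 19, 5 in tumor 39 and 0 in the other 5. Krt17 (chromosome 11, 100256217 to 100261029) had 1903 reads (22.0 FPKM) in tumor 37, 5 in tumor 19, 3 in tumor 39 and 0 in the other 5. The anti-PD-1 tumor 19 thus held more reads of Krt16 and Krt17 than F. nucleatum tumors 36, 39 and 40 did, and without tumor 37 the log2 difference of Krt16 was -0.19. Krt16 shares 12.4% of its 50-base stretches with Krt14.

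The inner root sheath was represented on both sides of its filament pairs. Krt71 (chromosome 15, 101733949 to 101743109) had 1946 reads (15.97 FPKM) in tumor 37 only, and Krt25 (chromosome 11, 99315516 to 99322951) had 1349 (12.2 FPKM) in tumor 37 only. Krt27 had 866 reads (10.02 FPKM) in tumor 37, 5 in tumor 11 and 0 in the other 6. The other 4 sheath keratins were lower: Krt28, Krt73, Krt72 and Krt26 had 149, 183, 112 and 67 reads in tumor 37, of which Krt28 alone had reads elsewhere (5 in tumor 36 and 1 in tumor 39). All 4 type I and all 3 type II sheath keratins annotated as protein coding were in the table. Krt75, the type II keratin of the companion layer, had 266 reads (1.45 FPKM) in tumor 37 only.

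Hair shaft keratins were low per gene, with a median of 1.63 FPKM in tumor 37, whereas the Krtap genes reached levels like those of the sheath keratins. Of 16 annotated hair shaft keratins 7 were in the table, with 85 (Krt35) to 274 reads (Krt81) and 0.627 to 2.32 FPKM in tumor 37. Krt31, Krt33a, Krt33b and Krt34 are keratins of the shaft's cortex, and Krt35 is made earlier, in the matrix. Krt87 was the 1 shaft keratin with reads elsewhere, 3 in tumor 39. Of 57 annotated Krtap genes 18 were in the table under that name, and all 18 had reads in tumor 37 and in no other tumor. Their levels ran from 0.692 FPKM (Krtap2-4, 33 reads) to 16.6 FPKM (Krtap8-1, 532 reads), with a median of 2.79. Krtap7-1 (10.7 FPKM, 372 reads) and Krtap22-2 (5.70 FPKM, 117 reads) followed Krtap8-1, and all 3 belong to the glycine and tyrosine rich kind encoded on chromosome 16. Krtap1-5 (3.47 FPKM) was the highest of the 6 on chromosome 11, and Krtap14 (3.24), Krtap16-3 (3.11) and Krtap19-3 (3.04) came next on chromosome 16. The row listed as 4930553J12Rik is annotated as Krtap15 in GENCODE and is outside the rule; it had 207 reads in tumor 37 and 0 elsewhere.

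**Figure D2:**
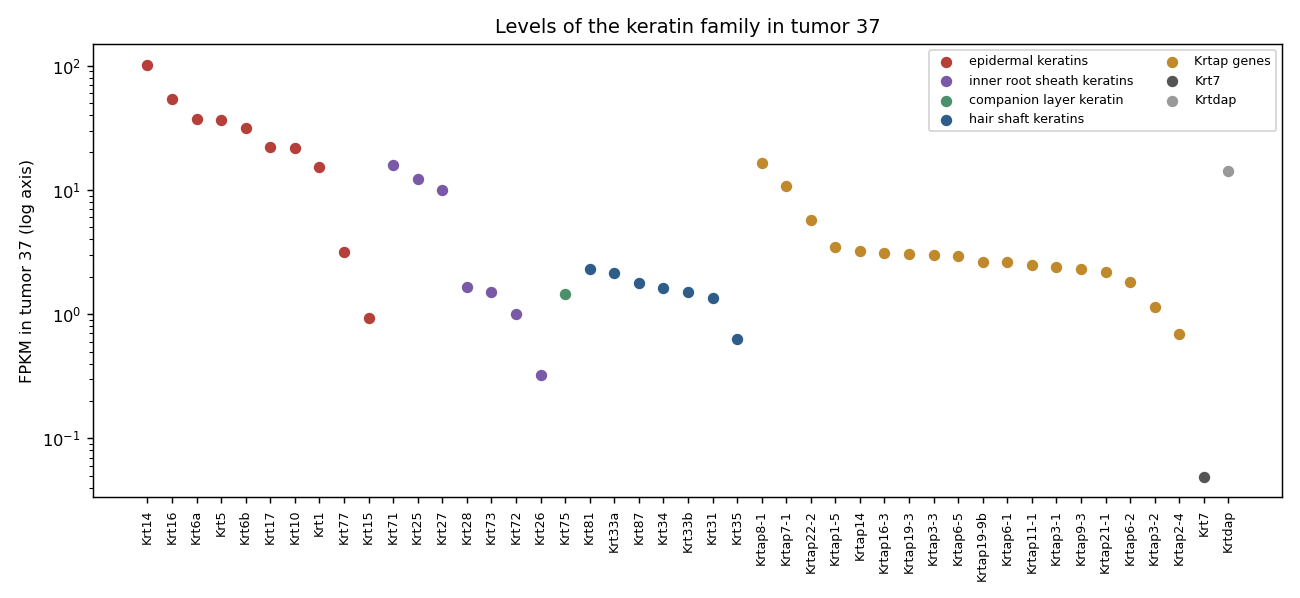
FPKM in tumor 37 (log axis) of each of the 45 members, ordered within class and coloured by class, 1 library with no replicate. Epidermal keratins reach 101.9 FPKM, inner root sheath keratins 15.97, hair shaft keratins 2.32 and Krtap genes 16.6.

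Summed by class on the FPKM scale, the 10 epidermal keratins came to 324.3 FPKM in tumor 37, the 7 inner root sheath keratins to 42.6, the 7 hair shaft keratins to 11.4 and the 18 Krtap genes to 70.1. The 10 epidermal keratins summed to 0.310 to 0.648 FPKM in the other 7 tumors. Krt10 gave most of this, and in tumor 19 it was 0.341 of 0.502 FPKM, with Krt16 at 0.128 and Krt17 at 0.0325. The hair follicle classes (sheath, companion layer, shaft and Krtap) made up 27.9% of the keratin and Krtap total of tumor 37 (95% exact binomial interval 27.4% to 28.4%, counting error only). This share depends on the class list: Krt6a, Krt6b, Krt15, Krt16 and Krt17 are made in epidermis and follicle, and with them counted as hair, a choice added after seeing the data, it was 60.3%. Krt5 and Krt14, at 36.5 and 101.9 FPKM, were counted as epidermal in both versions. A bulk library does not show which cells made them, so 60.3% is not an upper limit. Without the Krtap genes the hair share of keratins was 14.6%. Hair classes in the other 7 tumors summed to at most 0.0407 FPKM.

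Type I keratins exceeded type II keratins per length in tumor 37. The 14 type I members summed to 232.2 FPKM and the 12 type II members to 147.6, a ratio of 1.57 (95% interval from an exact binomial 1.54 to 1.60, counting error only). By pair, the ratio of type I to type II level was 2.79 for Krt14 over Krt5 (2.69 to 2.89) and 1.11 for Krt16 and Krt17 over Krt6a and Krt6b (1.08 to 1.15). It was 1.31 for the inner root sheath sets (1.23 to 1.39) and 1.77 for the hair shaft sets (1.58 to 1.99), where 5 type I and 2 type II genes were in the table. Krt10 over Krt1 was 1.42 (1.35 to 1.49) in FPKM and 1.02 in reads per kilobase of the longest annotated transcript, because the FPKM of Krt1 corresponds to 4398 bases where that transcript has 3133. In 40 of the 45 members the 2 lengths agree within 5%. These are ratios within 1 library, and partners outside the table are missing from them. Shared sequence limits them too, on both sides. Krt6a and Krt6b each share 44.8% of their 50-base stretches with other Krt transcripts and Krt81 37.7%, against 12.4% for Krt16 and 33.1% for Krt34. How reads that fit more than 1 gene were counted is not known here, and the intervals do not cover it.

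**Figure D3:**
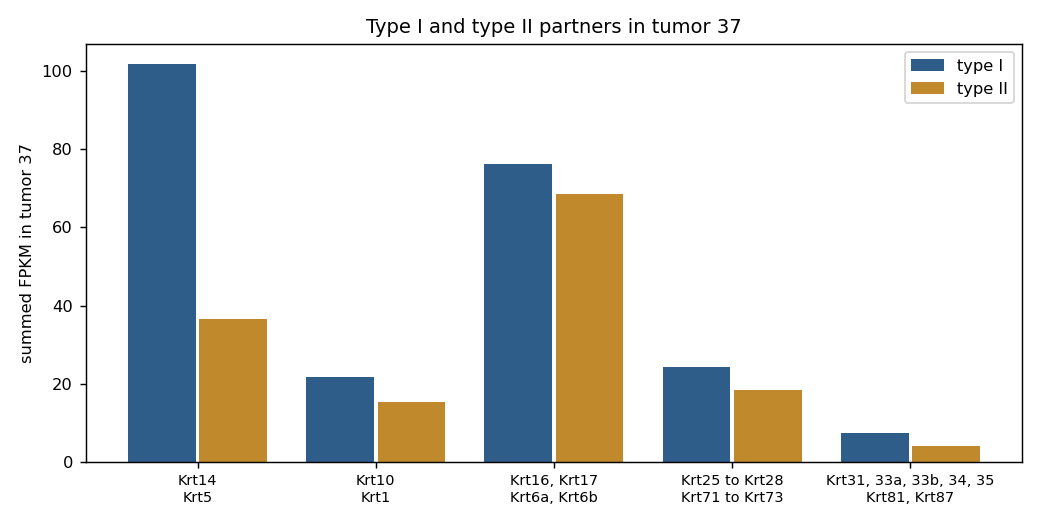
Summed FPKM in tumor 37 of type I (blue) and type II (ochre) keratins of 5 partner sets, from the linear axis origin at 0, 1 library with no error between replicates. Type I is higher in each set, most in Krt14 with 101.9 against 36.5 FPKM for Krt5.

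Krt7 was the exception among the members. Krt7 (chromosome 15, 101411043 to 101430313, plus strand), a type II keratin of simple and glandular epithelia, had 12, 6, 7 and 23 reads in tumors 11, 17, 18 and 19 and 30, 21, 41 and 28 reads in tumors 36, 37, 39 and 40. In FPKM these were 0.0242, 0.0176, 0.0141 and 0.0388 against 0.0544, 0.0493, 0.0732 and 0.0601. Tumor 37 was the lowest of its group in reads and FPKM, and tumor 39 the highest. On the deposited log2 scale tumor 36 (4.65) and tumor 37 (4.66) were nearly level. Krt7 was the 1 member whose groups did not overlap, 2.22% of members against 7.18% of all genes of the table that were higher without overlap. Its mean was 0.0237 ± 0.0109 FPKM in the anti-PD-1 tumors and 0.0593 ± 0.0103 FPKM in the F. nucleatum tumors (SD, n = 4 each). The log2 difference of Krt7 was 1.26 ± 0.57 (limma SE, unadjusted p = 0.0480, adjusted p = 0.113), and it lay between 1.08 and 1.49 with each tumor left out in turn. With every tumor centred to the same median over the table, the difference of Krt7 was 0.65 (limma, adjusted p = 0.473, with adjusted p from 0.0848 to 0.473 over all settings tried), and 0 members had an unadjusted p under 0.05. All of its values are far below 1 FPKM, and its FPKM corresponds to a length 1.86 times that of the longest annotated transcript.

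**Figure D4:**
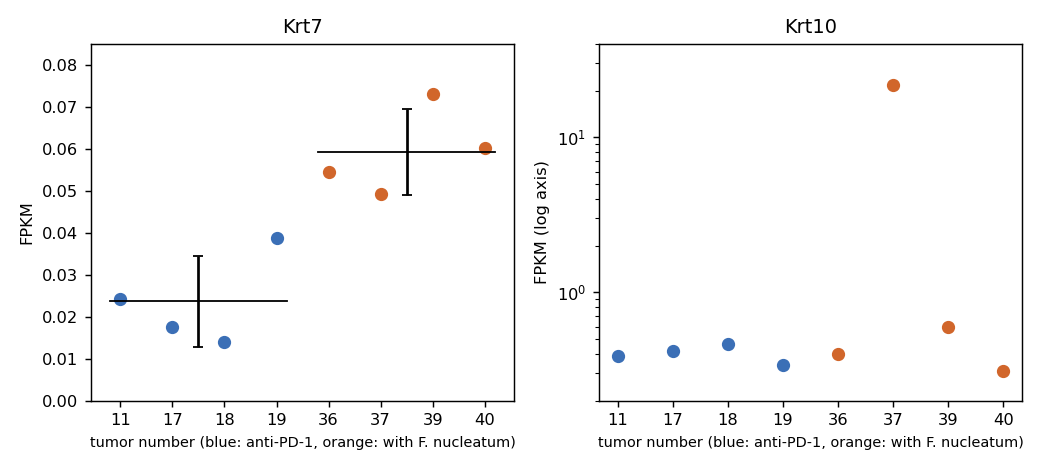
FPKM by tumor of Krt7 (linear axis, with black lines for the mean and bars for the SD of 4 tumors) and Krt10 (log axis), the 2 members with reads in all 8 tumors. Krt7 is higher in each F. nucleatum tumor than in each anti-PD-1 tumor, whereas Krt10 stands at 21.7 FPKM in tumor 37 and between 0.310 and 0.599 elsewhere.

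Between groups, all 45 members had a higher mean log2 value with F. nucleatum (53.1% of all genes), with differences from 1.26 to 3.96 and a median of 1.84, where all higher genes of the table had a median of 1.94. With the genes that had 0 reads in every anti-PD-1 tumor (39 members, 27.3% of all genes) set at their lower bound, the median log2 ratio of mean normalized counts was 3.78. No member passed limma with Benjamini-Hochberg adjustment over the 752 genes (adjusted p under 0.05), nor did any gene of the table (0%). Krt7 was the 1 member with an unadjusted p under 0.05, where 15.4% of the table's genes had one and were higher. On recovered reads limma with voom also called 0 members (0 at an unadjusted p under 0.05). Krt14, for example, had a log2 difference of 3.96 ± 2.48 (limma SE, adjusted p = 0.190) and Krt5 of 3.08 ± 2.39 (adjusted p = 0.277). For the 36 members with reads in tumor 37 only, the difference equals the SE from the gene's own variance at any read count (3.08 for Krt5). That limma did not call these members was thus largely fixed by this pattern, and it is no result about them. With tumor 37 left out, the members had a median log2 difference of 0, with 36 members at 0 reads in all 7 tumors left, 6 higher and 3 lower with F. nucleatum (Krt16, Krt27 and Krtdap).

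The authors' deposited table gave a different account, with an FDR under 0.05 for 37 of the 45 members, against 15.2% of all genes that were higher with such an FDR. Members with reads in tumor 37 alone had such an FDR in the authors' deposited table in 35 of 36 cases, the exception being Krtap2-4 (33 reads). Of the 9 members with reads in a further tumor, 2 had one in the authors' deposited table, Krt14 and Krt87. In the authors' deposited table Krt16, with 4729 reads in tumor 37, had an FDR of 0.524, and Krt26, with 67, had one of 4.74e-07. That of Krt17 was 0.453 and that of Krt10 was 0.336 in the authors' deposited table, and Krt14 had the smallest of the members, 1.5e-11. The sources used here do not say which test gave these values. Over the authors' deposited table as a whole, 78 of 98 genes with reads in tumor 37 alone had an FDR under 0.05.

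Outside tumor 37 the 43 members other than Krt7 and Krt10 had 56 reads in all, 0.128% of their 43629 reads in tumor 37. Tumor 19 held 29 of these (Krt16, Krt17 and Krtdap), tumor 39 held 12, tumor 36 held 10 and tumor 11 held 5. Tumors 17, 18 and 40 had 0 reads of all 43. Type I keratins accounted for 6 of the 9 members with reads in more than 1 tumor, type II for Krt7 and Krt87, and no Krtap gene was among them. Krtdap, a secreted protein of differentiating keratinocytes, had 539 reads in tumor 37 (14.3 FPKM), 7 in tumor 19 and 0 in the other 6.

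The 44 keratin and Krtap members came from 3 gene clusters, and Krtdap lies apart on chromosome 7 (30787896 to 30791097). All 14 type I members lie on chromosome 11, between 99315516 and 100261029 (GRCm38), with 6 Krtap genes among them, and all 12 type II members on chromosome 15, between 101411043 and 101869705. The other 12 Krtap genes lie on chromosome 16, between 88818667 and 89571183. The longest stretch of neighbouring protein-coding family genes that are all members is Krt75, Krt6b, Krt6a, Krt5, Krt71, Krt72 and Krt73 on chromosome 15. The pseudogene Krt74, between Krt71 and Krt72, was not counted. That stretch mixes companion layer, epidermal and sheath keratins, and levels within it ran from 1.001 FPKM (Krt72) to 37.2 FPKM (Krt6a) in tumor 37. On chromosome 11 the sheath genes Krt25, Krt26, Krt27 and Krt28 adjoin Krt10, and Krt14, Krt16 and Krt17 adjoin each other. Close copies make single values uncertain here too: Krtap3-3 shares 41.3% of its 50-base stretches with Krtap3-2, Krt34 shares 33.1% with other Krt transcripts and Krt81 shares 37.7%, mostly with Krt86, which is not analysed here.

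**Figure D5:**
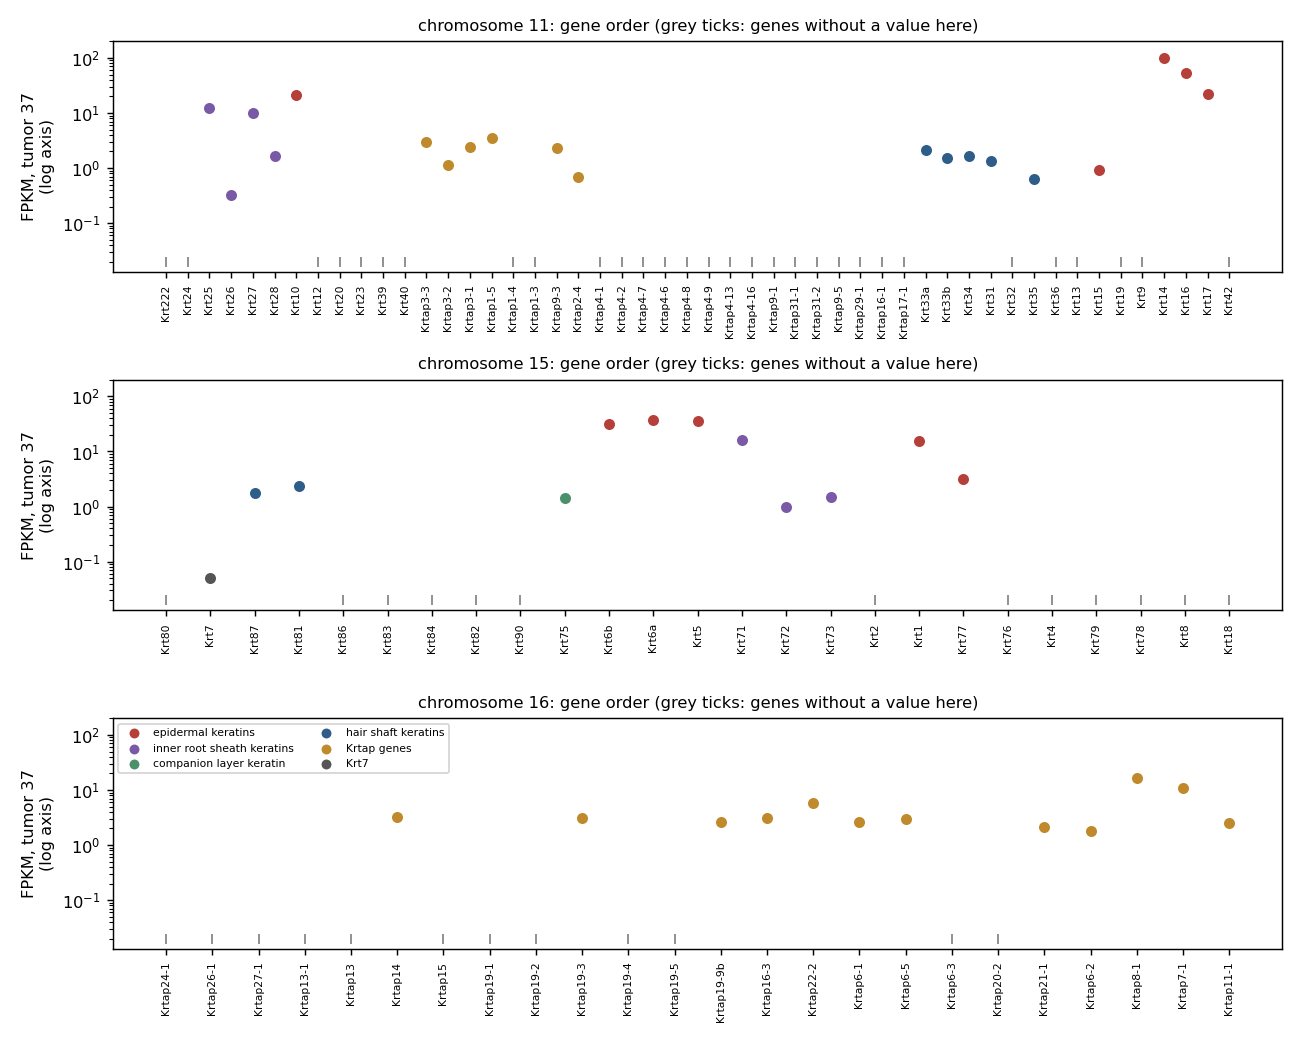
FPKM in tumor 37 (log axis) of members against the order of annotated keratin and Krtap genes on chromosomes 11, 15 and 16, coloured by class. Grey ticks at the bottom are genes without a value here (Krtap15 is listed in the table under another symbol); levels of neighbours range from 1.001 to 37.2 FPKM in the stretch of 7 members on chromosome 15.

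The listed genes of skin that were in the table were highest in the same tumor. A gene near 0 elsewhere could enter this selected table only through that tumor, so the pattern is partly set by the selection. Listed genes outside the table have no value here. Of 53 listed cornified envelope genes (Krtdap counted apart) 17 were in the table, and all 17 were highest in tumor 37 (26.6% of all genes). Of the 17, 14 had 0 reads in every anti-PD-1 tumor (27.3% of all genes). The authors' deposited table had 11 of the 17 below an FDR of 0.05 (15.2% of all genes were higher with such an FDR). The 17 genes summed to 75.6 FPKM in tumor 37, to 0.534 to 1.19 in the anti-PD-1 tumors and to 0.633 to 1.76 in tumors 36, 39 and 40. They were led by Sprr1a (13.9 FPKM), Sprr2a2 (13.0), Sprr2a1 (12.1) and Sprr1b (9.63), precursors of the envelope. Of 16 desmosome genes 8 were in the table, summing to 33.4 FPKM in tumor 37 and to at most 0.167 elsewhere. Perp (19.7 FPKM), Dsp (3.70), Pkp1 (3.17) and Dsg1a (2.17) were the highest in tumor 37, and Dsg1a had 0 reads in all others. Of 23 hair follicle genes that are not keratins 4 were in the table, led by Tchh (3.78 FPKM in tumor 37, at most 0.0423 elsewhere), the trichohyalin of the inner root sheath, with Tchhl1, Crym and Hoxc13, a transcription factor of hair keratins (15 reads in tumor 37 and 8 in tumor 40). Of 10 basal keratinocyte genes Sfn and Col17a1 were in the table, with 20.4 and 2.36 FPKM in tumor 37, and Sfn had 0.472 to 1.16 FPKM in the other 7.

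Markers of further cell types moved with the keratins only in part. Of 8 listed simple epithelial genes Epcam and Cldn4 were in the table, with 160 and 105 reads in tumor 37, at most 5 in any other tumor and 0 in the 4 anti-PD-1 tumors. The epidermal lipid barrier genes Abca12 and Cyp4f39 (2 of 10 listed) and the sebaceous gland gene Fa2h (1 of 13) had reads in tumor 37 only. Skeletal muscle genes, 20 of 21 listed, were highest in tumor 36, where they summed to 459.8 FPKM, and came to 24.7 in tumor 37, 5.36 in tumor 39, 3.63 in tumor 40 and 2.74 to 3.93 in the anti-PD-1 tumors. Acta1, the muscle actin, had 184.3 FPKM in tumor 36 and 7.85 in tumor 37, followed in tumor 36 by Tnnt3 (47.7), Tnnc2 (33.8) and Atp2a1 (31.7). None of the listed melanocyte (9), adipocyte (8) or mammary gland (8) genes was among the table's rows, and they were not analysed here. The part of all these marker genes' cell types in the keratin values was not tested. Keratins and Krtap genes summed to 449.9 FPKM in tumor 37. They summed to 0.520, 0.737 and 0.370 FPKM in tumors 36, 39 and 40, which had the same treatment, and to 0.439 to 0.541 in the anti-PD-1 tumors. Why 1 tumor of its group carried the keratins was not tested.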

How the data were processed

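Per the labels' protocols, the libraries of the 8 tumors kept the strand. Tools listed in the submitters' processing notes are STAR 2.5, Cuffnorm and DESeq 1.22.1, beside the build mm10; which step each did is not stated. The authors' deposited table gives per gene and tumor a log2 value, which on its values is log2 of a normalized count plus 1, and an FPKM value, with a log2 difference, a p-value and an FDR for the group comparison. No source used here names its test. The members, classes and lists were chosen with earlier results of these data known.

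Reads were recovered as 2 to the power of the log2 value, minus 1, divided by the tumor's smallest such value above 0. Groups were compared on the deposited log2 values of all 752 genes by limma (3.58.1, under R 4.3.3). It used moderated variances with a trend over the mean, and p-values were adjusted by Benjamini-Hochberg over all of these genes. The procedure was also tested on simulated data. No outcome of that test is given here, so it does not show that limma suits members carried by a single tumor. Levels of different genes were compared in FPKM. Positions and transcript lengths came from GENCODE M21 on GRCm38, the assembly of mm10, and promoters from RefSeq on GRCm38.p6. Repeated sequence was the share of 50-base stretches also found in transcripts of another Krt gene. Other steps ran in Python 3.11.15 (pandas 2.3.3 and scipy 1.17.1).

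Named genes were the 20 members with the largest FPKM in any tumor, members above 0 in at least 2 anti-PD-1 tumors, members lower with F. nucleatum (there were 0), and up to 4 genes per other list with the largest FPKM. Other members were named after their values were seen, to account for each class. The other settings tried were log2(FPKM + 1), a filter at a mean of 1 FPKM, a pseudocount of 0.1, median centring, no trend, each tumor left out, an FDR under 0.01, marks of 80% and 95%, and sums on normalized counts, above 1 FPKM or without Krtap genes. Voom on recovered reads, reads per kilobase, recovered reads for the highest tumor and a hair class with Krt6a, Krt6b, Krt15, Krt16 and Krt17 were added after seeing the data. Tumors carry no batch or pair in the labels.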

Additional observations from a re-analysis of the deposited data

Results flagged for a closer look

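In groups of 4 tumors, 1 log2 value stood apart from the other 3 by more than Dixon's 95% critical share of the group's range in 44 of the 51 cases in which a member's values differed within a group. The critical share is made for normally distributed values, of which about 1 in 20 groups would be flagged. That rate does not apply where 3 of 4 tumors have 0 reads, since the ratio is then 1 at any read count in the tumor left. The members also share their tumors, so these are not 44 separate events. In 40 cases the tumor was tumor 37. The gap was the whole range (a ratio of 1) in 42 cases, where the other 3 tumors had 0 reads. For Krt10 in the F. nucleatum group the ratio was 0.852 and for Krt17 it was 0.84, both for tumor 37. In the anti-PD-1 group the 4 cases, each with a ratio of 1, were Krt16, Krt17 and Krtdap in tumor 19 and Krt27 in tumor 11.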

How the results depend on the processing

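No member passed limma under any of the 13 other settings, from log2(FPKM + 1) to each tumor left out, or with voom (added after seeing the data), the smallest adjusted p of a member lying between 0.0848 and 0.226, while the whole table went from 0 calls to 125 with median centring, 140 without tumor 36, 33 without tumor 37 and 2 without tumor 18 or 40. For the 36 members with reads in tumor 37 only, the lack of calls was largely set beforehand. Their difference equals the SE from their own variance at any read count, and it is 0 by construction without tumor 37. Median centring lowers every log2 difference by a shift of -0.61, and all 45 members stayed higher. The median log2 difference of the members, 1.84, was 0.47 on log2(FPKM + 1) and ranged from 0 (without tumor 37) to 2.46 with each tumor left out. With a tumor left out, log2 differences ranged from -0.19 to 3.96 for Krt16, from -0.63 to 2.69 for Krt27 and from -0.68 to 2.42 for Krtdap, the lowest always without tumor 37. The ratio of type I to type II keratins in tumor 37, 1.57 in FPKM, was 1.08 on normalized counts, which are not per length, and 1.52 in reads per kilobase of the longest transcript. The hair share of 27.9% was 19.1% on normalized counts, 14.6% without Krtap genes and 60.3% with Krt6a, Krt6b, Krt15, Krt16 and Krt17 counted as hair (the last, and reads per kilobase, added after seeing the data). The counts of members called by FDR in the authors' deposited table, of those with most reads in 1 tumor and of those highest in tumor 37 stayed within 1.5 times under their alternatives. No paired analysis was possible because no label says that tumors of the different groups form pairs. Depth limits Krt7, with 6 to 41 reads per tumor, and every gene at 0 reads.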
